A study of Homo sapiens with 11 samples.

Results

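The major histocompatibility region is a gene-dense stretch of human chromosome 6 that holds most of the genes for antigen presentation. It was taken as GRCh38 chromosome 6 from 29.5 to 33.4 Mb, and an Ikaros peak belonged to it when any part of the peak overlapped that interval. The class I span ran from 29.5 to 31.5 Mb, the class III span from 31.5 to 32.4 Mb and the class II span from 32.4 to 33.4 Mb, with each peak given to a span by its centre. Of 300249 peaks in 5 lists, 1112 lay in the region, of which 561 were in the class I span, 367 in the class III span and 184 in the class II span. The region held 326 of 88692 peaks in treated JM1, 170 of 37448 in untreated JM1, 257 of 70894 in treated Nalm6, 287 of 83563 in REH and 72 of 19652 in 697.

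The peaks came from chromatin immunoprecipitation and sequencing (ChIP-seq) of Ikaros, a zinc finger protein encoded by IKZF1 that controls lymphoid development. JM1, Nalm6, REH and 697 are established human lines of leukemic B-cell precursors. For JM1 there was a list from cells exposed for 1 day to CX-4945 at 20 µM, which blocks the protein kinase CK2, and a list from untreated cells. Nalm6 was studied after the same dose and time, and REH and 697 were untreated. The labels name a Bethyl antibody for the JM1 and REH libraries, and for those of Nalm6 and 697 an anti-Ikaros antibody purified by affinity, so line and antibody cannot be told apart between these pairs.

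Each of the 5 conditions had 1 peak list, so no difference below has a replicate check and no p-value is given. The authors gave every peak a whole-number score, with a lowest value of 10 in each list and medians from 15 to 22. Scores are read here only within a list, as a percentile, which is the share of that list's peaks with a lower score plus a part for ties. Read depth was not analysed here, and list length moves with depth and calling threshold, so a peak count is not an amount of binding. All intervals are 95% exact Clopper-Pearson intervals and cover counting error only. None of the lists had a peak across either inner border of the spans. In treated JM1 the outermost region peaks were chr6:29499918-29500594 (score 15) and chr6:33391289-33392191 (score 95), and the nearest peaks left out were chr6:29487892-29488480 (score 15) and chr6:33403908-33406601 (score 32). Over all 5 lists the outermost peaks scored 11 to 95 and the nearest ones left out 11 to 76.

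Class I molecules, built from an HLA heavy chain and beta-2-microglobulin, show peptides made by the proteasome and carried into the endoplasmic reticulum by the TAP transporter. Class II molecules, built from an alpha and a beta chain, show peptides from endosomes, where HLA-DM loads them and HLA-DO restrains HLA-DM. Class II genes are expressed by B cells and other professional presenting cells and are driven by CIITA with the RFX, NF-Y and CREB factors at a shared promoter module. The class III span holds no classical presenting molecule and carries the TNF cluster, complement genes, heat shock genes and many housekeeping genes. Ikaros binds DNA through zinc fingers that read a core of GGGAA.

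The promoters shown here belong to genes of the class I chains and of class I peptide processing that had a peak in the most lists. Of the 19 class I chain, class II chain and processing genes, 17 had an entry in the RefSeq promoter table (GRCh38.p14), and 134 of 160 coding genes of the region had one. Each stretch is taken from the 250 bases before the RefSeq start, without bases that GENCODE places in an exon of a coding gene, and is written 5′ to 3′ on the strand of the gene. Capitals mark GGGAA or its complement TTCCC. The stretches are chr6:32853942-32854191 on the plus strand for PSMB9, chr6:29827575-29827824 on the plus strand for HLA-G, chr6:29723184-29723305 on the plus strand for HLA-F, chr6:32844048-32844135 on the minus strand for PSMB8, chr6:33314268-33314328 on the minus strand for TAPBP and chr6:31357294-31357429 on the minus strand for HLA-B.
PSMB9: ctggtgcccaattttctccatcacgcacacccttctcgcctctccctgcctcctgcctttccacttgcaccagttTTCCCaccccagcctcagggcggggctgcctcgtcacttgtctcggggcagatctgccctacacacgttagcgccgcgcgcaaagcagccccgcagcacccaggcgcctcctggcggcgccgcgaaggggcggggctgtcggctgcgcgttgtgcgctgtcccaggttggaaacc
HLA-G: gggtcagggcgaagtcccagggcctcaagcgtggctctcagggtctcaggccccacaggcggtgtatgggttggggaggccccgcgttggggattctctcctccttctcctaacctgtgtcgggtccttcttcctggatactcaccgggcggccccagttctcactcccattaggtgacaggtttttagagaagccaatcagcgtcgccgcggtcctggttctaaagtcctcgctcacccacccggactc
HLA-F: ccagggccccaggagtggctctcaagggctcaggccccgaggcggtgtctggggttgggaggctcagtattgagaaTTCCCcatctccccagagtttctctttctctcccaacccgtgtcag
PSMB8: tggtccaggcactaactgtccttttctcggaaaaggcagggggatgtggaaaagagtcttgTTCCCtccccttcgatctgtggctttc
TAPBP: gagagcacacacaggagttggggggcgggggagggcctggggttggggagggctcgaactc
HLA-B: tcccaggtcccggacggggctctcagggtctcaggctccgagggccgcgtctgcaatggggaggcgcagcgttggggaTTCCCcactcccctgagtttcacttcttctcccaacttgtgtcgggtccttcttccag

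The PSMB9 stretch lies between PSMB9 and TAP1, which are read in opposite directions from neighbouring starts. All 250 of its bases were inside a peak in all 5 lists, and the part common to those peaks ran from position -724 to position 110 relative to the PSMB9 start. At the class I chains the part common to all peaks lay elsewhere. It began 475 bases after the start of HLA-F, 512 bases after that of HLA-G and 127 bases after that of HLA-B. Its edges are set by the peaks that reach least far, and other peaks did cover bases before the start. All 122 printed HLA-F bases were inside the peaks of treated JM1, untreated JM1 and REH. All 136 printed HLA-B bases were inside the peaks of treated JM1 and REH. In the remaining lists 0 of these bases were inside a peak. Of the 250 printed HLA-G bases, 181 were inside the treated JM1 peak and 99 inside the 697 peak, with 0 in the other 3 lists. GGGAA on either strand was found 0 times in the common part at HLA-F (247 bases), HLA-G (207 bases) and HLA-B (484 bases). The count was 3 at PSMB9 (835 bases) and 3 at PSMB8 (329 bases), so these counts belong to stretches of unlike length. The 3508-base common part at TAPBP held GGGAA 23 times. In the 250 bases before the start, 71.6% of the 134 promoters of the region held the core on either strand (63.2 to 79.1%), against 58.7% of 27171 other promoters in the table (58.1 to 59.3%). The CCAAT box, the letters that NF-Y binds, was in 45.5% of them (36.9 to 54.4%), and in 62.5% of the 32 class II promoters (43.7 to 78.9%), against 33.0% of other promoters. The region promoters were those of coding genes, and the other promoters were not limited to coding genes. Starts were also picked differently, as the nearest to the canonical start in the region and the first listed elsewhere. The shares are thus of unlike sets, and their difference was not tested.

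Ikaros peaks were denser in the region than in the rest of the genome in all 5 lists, and densest in the class III span. The region held 83.6 peaks per Mb in treated JM1 and 43.6 in untreated JM1, against 30.1 and 12.7 per Mb in the rest of the genome. In the other lists the density was 65.9 per Mb in treated Nalm6, 73.6 in REH and 18.5 in 697, against 24.1, 28.4 and 6.66 per Mb in the rest. That put the region at 2.59 times (REH) to 3.43 times (untreated JM1) the density of the rest. Class III stood at 3.33 times (REH) to 5.60 times (untreated JM1), class I at 2.51 times (treated Nalm6) to 2.95 times (untreated JM1), and class II at 1.495 times (treated Nalm6) to 2.44 times (untreated JM1).

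**Figure D1:**
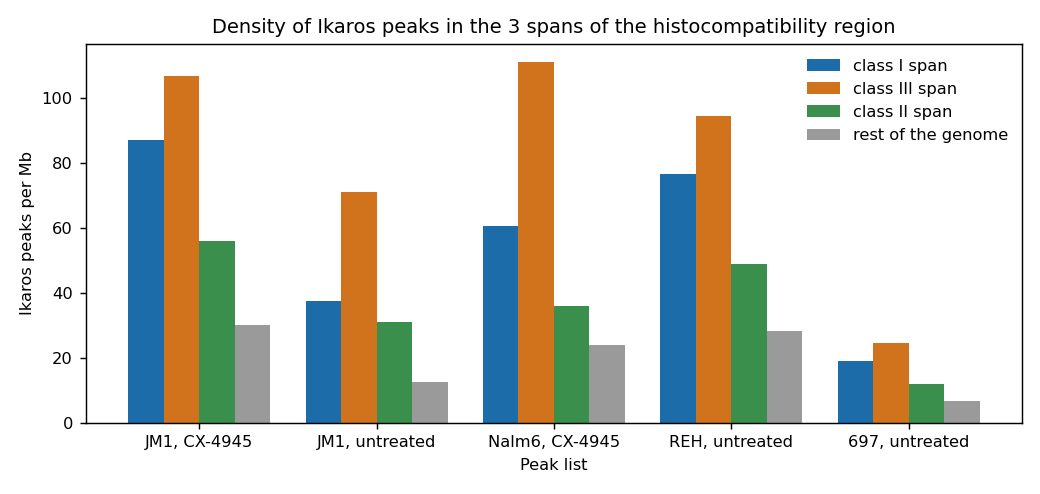
Ikaros peaks per Mb (vertical axis) in each of the 5 peak lists (horizontal axis), with bars for the class I, class III and class II spans and the rest of the genome. The class III bar is the tallest in every list, from 24.4 per Mb in 697 to 111 per Mb in treated Nalm6, and the bar for the rest is the shortest.

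Genes were also dense there. The region had 41.0 protein-coding genes per Mb and the class III span 75.6, against 6.77 per Mb in the rest of the genome. Gene density was thus higher by a larger factor than peak density in every list, and the part of gene density in the peak counts was not tested. In REH, peaks covered 28.9% of the class III span, and in treated JM1 30.7%, against 6.04% and 5.98% of the rest of the genome. Coverage of class III was 10.1% in untreated JM1, 15.1% in treated Nalm6 and 1.5% in 697. Region peaks were called promoter peaks by the authors' annotation more often than other peaks: 36.2% in treated JM1 and 46.5% in untreated JM1, against 16.0% and 26.2% in the rest. In 697 the gap was small, with 44.4% in the region and 40.7% in the rest.

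The highest-scored peaks of the class I span lay at genes with no role in presentation. A peak between IER3, a stress-induced survival gene, and FLOT1, which encodes a membrane scaffold protein, scored 331 in 697 and ranked 6 of 19652 peaks. In treated Nalm6 the same site scored 257 and ranked 2 of 70894. The merged locus spans chr6:30740123-30745102 and was also in treated JM1 (score 66, percentile 97.5), untreated JM1 (score 29, percentile 95.7) and REH (score 75, percentile 96.4). The C6orf136 start held the top class I peak of treated JM1 (score 228, rank 90) and the second of treated Nalm6 (score 97, rank 71). In untreated JM1 the top peak lay between CCHCR1 and TCF19 (score 60, rank 66), a site that scored 172 in treated JM1 (rank 165). The REH list was led by a 10010-bp peak over PPP1R18 and NRM (score 118) and by the start of TUBB, a beta-tubulin gene (score 115).

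Treated JM1 had its highest class III peaks at ZBTB12 (score 148), LSM2, which encodes a splicing factor subunit (score 144), and PRRC2A (score 119). PRRC2A was also the top class III peak of REH (score 84). Untreated JM1 had its 3 highest at SNHG32 (score 43), LY6G5C (score 42) and LTA (score 32), the lymphotoxin alpha gene. In treated Nalm6 peaks at ATP6V1G2 and LSM2 tied at a score of 58. In 697 the top class III peak lay between EHMT2, a histone lysine methyltransferase gene, and a C2 start (score 50, percentile 91.8).

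In the class II span the leading peaks were at KIFC1, a mitotic kinesin gene (score 95 in treated JM1), BRD2, a bromodomain gene (score 115 in REH and 92 in treated JM1), and RING1, a Polycomb gene (score 37 in untreated JM1, 46 in treated Nalm6 and 47 in 697). TAP1 with PSMB9 was the third in that span in treated JM1 (score 64) and in REH (score 85). An HLA-DQB1 intron peak was the second of REH, at chr6:32664942-32665428 (score 92, percentile 98.1). In untreated JM1 an HLA-DQB2 exon peak and a peak annotated to RGL2 tied for the third place (score 28, percentile 95).

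The share of coding genes with a peak at a start was then counted, a start-site peak being one with any part within 1000 bp of an annotated start of any transcript of the gene. Of 160 coding genes in the region, 134 had one in treated JM1 and 99 in untreated JM1, or 83.8% and 61.9%. Among all 20033 coding genes the share was 81.2% in treated JM1 and 58.8% in untreated JM1. Treated Nalm6 had 117 of 160 (73.1%, against 74.3% of all genes) and REH had 135 of 160 (84.4%, against 81.8%). These 4 shares were near those of all genes. In 697 the count was 45 of 160, or 28.1% (21.3 to 35.8%), against 49.5% of all genes.

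By span, class III genes had a start-site peak in 11 of 68 cases in 697, or 16.2% (8.36 to 27.1%), and class II genes in 9 of 38, or 23.7% (11.4 to 40.2%). Class I genes had one in 25 of 54, or 46.3% (32.6 to 60.4%). The same class III genes had 61 in treated JM1, 49 in untreated JM1, 56 in treated Nalm6 and 62 in REH. With every list limited to its 19652 top-scored peaks, the length of the 697 list, class III had 43 genes in treated JM1, 33 in untreated JM1, 24 in treated Nalm6, 49 in REH and 11 in 697. Class II had 21, 17, 8, 23 and 9 genes in the same order, so there treated Nalm6 was the lowest and 697 the next. The shortened lists had a start-site peak at 60.5% of all coding genes in treated JM1, 45.3% in untreated JM1, 54.4% in treated Nalm6, 62.2% in REH and 49.5% in 697. What set the 697 count was not tested. Over all 5 lists, 39 of 160 genes (24.4%) had a start-site peak in each, against 41.8% of all coding genes, and 21 (13.1%) had one in no list, against 14.7%.

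**Figure D2:**
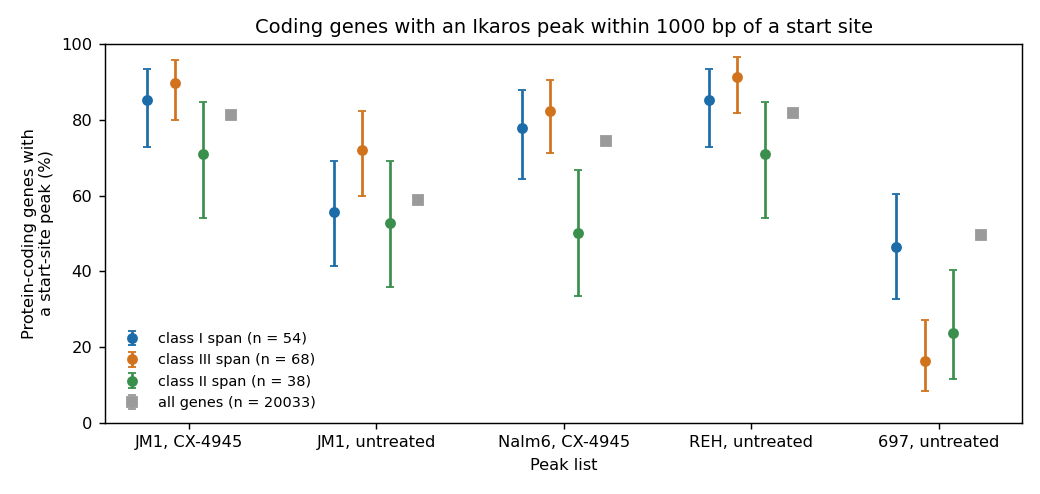
Share of protein-coding genes with a peak within 1000 bp of a start (vertical axis, %) in each peak list (horizontal axis), for the 3 spans and for all coding genes, with 95% exact binomial intervals as bars. In 697 the class III share of 16.2% lies far below the share of all genes, while the class I share of 46.3% lies beside it.

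For the genes of antigen presentation, values are given at the start of the canonical transcript, since GENCODE holds long variants of a few that begin at a neighbour. HLA-DMA is an example, with a variant that begins beside BRD2. By this rule 129 of 160 region genes had a peak in treated JM1 and 90 in untreated JM1, against 78.0% and 53.2% of all coding genes. The counts were 103 in treated Nalm6, 132 in REH and 39 in 697, against 70.0%, 78.8% and 45.1% of all coding genes.

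Class I heavy chain genes were the presenting molecules with peaks. HLA-F, a non-classical chain, had a peak in all 5 lists, with scores of 26 in treated JM1, 21 in untreated JM1, 51 in treated Nalm6, 60 in REH and 13 in 697. Its percentile was above 78 in each list but 697, where it was 12.2. HLA-G, best known from the placenta, also had a peak in all 5, with scores of 24, 17, 15, 14 and 33 in the same order. There the percentile was lowest in REH (14.0) and 73.7 in 697. The classical chains HLA-B and HLA-C and the non-classical HLA-E had a peak in every list but 697. At equal list length 697 did not stand apart: with every list limited to its 19652 top-scored peaks, 3 of the 5 class I chains listed here had a start-site peak in treated JM1, 2 in untreated JM1, 1 in treated Nalm6, 2 in REH and 2 in 697.

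HLA-B scored 27 in treated JM1 (percentile 80.7), 13 in untreated JM1 (29.8), 25 in treated Nalm6 (64.8) and 26 in REH (65.5). For HLA-C, scores were 18, 12, 19 and 19 in the same order, and no percentile was above 51.2. HLA-E scored 37 in treated JM1 (percentile 90.8), 11 in untreated JM1 (7.90), 21 in treated Nalm6 (52.0) and 39 in REH (85.2).

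MICA and MICB are stress-induced ligands of the NKG2D receptor of natural killer cells. MICA had a peak in all 5 lists, with scores of 25, 14, 22, 46 and 16 in treated JM1, untreated JM1, treated Nalm6, REH and 697. Peaks at another annotated MICA start scored 33 in treated JM1 (percentile 88.1), 23 in untreated JM1 (88.3) and 58 in REH (93.3). MICB had a peak in treated JM1 (score 35), treated Nalm6 (score 32), REH (score 57) and 697 (score 36) and none in untreated JM1.

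The genes of class I peptide supply lie in the class II span and had start-site peaks in most lists. TAP1, a subunit of the peptide transporter, and PSMB9, an immunoproteasome subunit, shared a peak that scored 64 in treated JM1 (percentile 97.3), 19 in untreated JM1 (75.7), 34 in treated Nalm6 (81.8), 85 in REH (97.5) and 19 in 697 (37.7). PSMB8, another immunoproteasome subunit, scored 35, 25, 33 and 42 in treated JM1, untreated JM1, treated Nalm6 and REH, all at percentiles above 80, and had none in 697. TAPBP, which encodes the tapasin bridge between TAP and the heavy chain, had scores of 36, 17, 28 and 33 in the same 4 lists and none in 697. The REH peak at TAPBP was 11952 bp wide and also covered the starts of ZBTB22 and DAXX, while the untreated JM1 peak was 3508 bp wide. TAP2, the partner of TAP1, had a peak only in treated JM1 (score 47, percentile 94.5) and in REH (score 71, percentile 95.8).

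**Figure D3:**
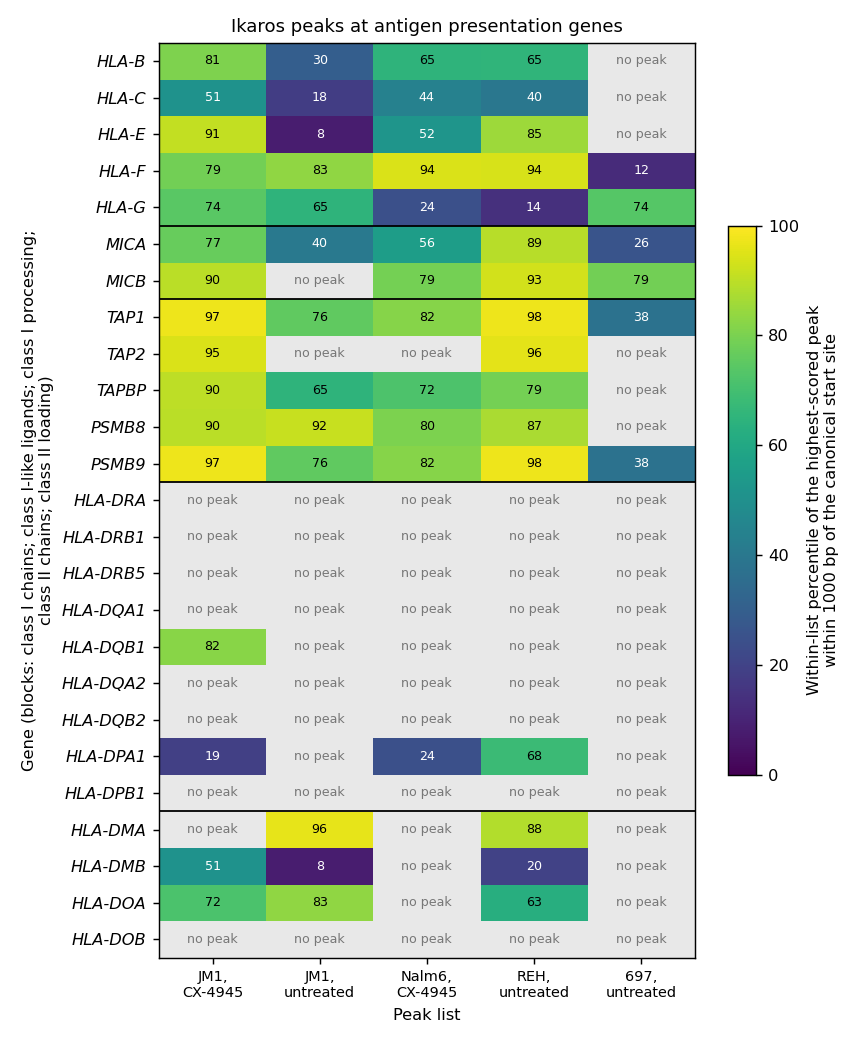
Within-list score percentile (color and printed value) of the highest-scored peak within 1000 bp of the canonical start, for 25 antigen presentation genes (rows) in the 5 peak lists (columns), with grey cells where a list had no such peak. Rows of class I chains, ligands and processing genes are mostly filled, and 7 of the 9 class II chain rows are grey throughout.

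Class II chain genes were nearly without peaks at their starts. Of the 9, HLA-DRA, HLA-DRB1, HLA-DRB5, HLA-DQA1, HLA-DQA2, HLA-DQB2 and HLA-DPB1 had no peak within 1000 bp of the canonical start in any list. HLA-DQB1 had one in treated JM1 alone, at chr6:32664981-32666625 with a score of 28 (percentile 82.3). HLA-DPA1 had one in treated JM1 (score 13), treated Nalm6 (score 15) and REH (score 27). The counts were thus 2 of 9 in treated JM1, 0 in untreated JM1, 1 in treated Nalm6, 1 in REH and 0 in 697. All coding genes had a canonical start peak in 78.0%, 53.2%, 70.0%, 78.8% and 45.1% of cases in the same order. An observed 0 of 9 allows a share of up to 33.6%. Counting every annotated start, HLA-DPB1 was credited with the HLA-DPA1 peaks, since their starts are close to each other.

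The distance to the nearest peak differed among these chains. For HLA-DRA, the invariant alpha chain of HLA-DR, it was 24.1 kb in treated JM1, 44.2 kb in untreated JM1, 19.9 kb in treated Nalm6, 25.3 kb in REH and 44.2 kb in 697. From the HLA-DRB1 start the nearest peak lay between 53.96 kb (REH) and 105.3 kb (untreated JM1) away. HLA-DQB2 had a peak in an exon about 1.4 kb from its start in 4 lists, with scores of 30, 28, 33 and 18 in treated JM1, untreated JM1, treated Nalm6 and REH. The HLA-DQB1 intron peak of REH lay 1.23 kb from its start, and a 697 peak at the same site lay 1.41 kb away (score 26, percentile 59.4). A site between HLA-DRA and HLA-DRB5, chr6:32483881-32484939, was in all 5 lists, with scores of 24, 16, 37, 41 and 13 in treated JM1, untreated JM1, treated Nalm6, REH and 697.

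The longest stretch of the region with no peak in any list was 129 kb of the class II span, chr6:32535888-32664941, which holds all of HLA-DRB1 and HLA-DQA1 and the end of HLA-DQB1. These chains are highly polymorphic, so how well short reads could be placed was measured with 50-base words of the reference, the read length in the labels. The measure was the share of such words that occur once in the main chromosomes. Alternate contigs of the region were not counted, and whether the authors' alignment used them is not known here. The share was 91.4% in that stretch, close to the 91.5% of the whole region. Within 1000 bp of the start it was 97% for HLA-DRA, 91.5% for HLA-DRB1, 90.2% for HLA-DRB5 and 96.3% for HLA-DQA1. How far the alleles of these lines differ from the reference was not tested. The second stretch, 74.1 kb in TSBP1 at chr6:32255833-32329965, had 87.6% unique words. The third, 65.3 kb at chr6:31980692-32046011, holds the duplicated complement genes C4A and C4B with CYP21A2, and only 9.40% of its words were unique.

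**Figure D4:**
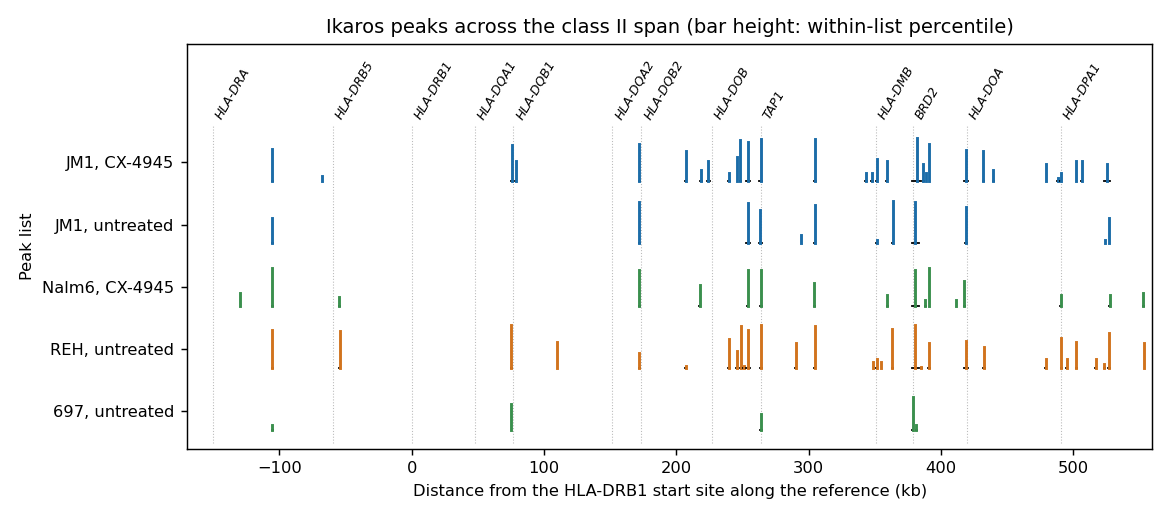
Peaks along the class II span by distance from the HLA-DRB1 start (horizontal axis, kb), with 1 row per peak list; black lines give peak extents, colored bars rise with the within-list percentile, and dotted lines mark gene starts. The rows are empty from HLA-DRB1 through HLA-DQA1 and fill from TAP1 onward.

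Of the 4 class II loading genes, 2 had a peak at the canonical start in treated JM1, 3 in untreated JM1 and 3 in REH. The shares of all coding genes were 78.0%, 53.2% and 78.8% in the same order. HLA-DOA, the alpha chain of HLA-DO, had a canonical start peak in treated JM1 (score 23), untreated JM1 (score 21) and REH (score 25), and HLA-DMB, the beta chain of HLA-DM, had one in the same 3 lists with scores of 18, 11 and 15. HLA-DMA had one in untreated JM1 (score 30, percentile 96.4) and REH (score 44, percentile 88.4) and none in treated JM1. HLA-DOB had none in any list. In treated Nalm6 and 697 none of the 4 genes had such a peak, against 70.0% and 45.1% of all coding genes.

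In the class III span the TNF cluster had start-site peaks in 7 of 7 genes in treated JM1 and 5 of 7 in untreated JM1, in 4 in treated Nalm6, 7 in REH and 1 in 697. All coding genes had one in 81.2%, 58.8%, 74.3%, 81.8% and 49.5% of cases in the same order. In the lists limited to 19652 peaks the TNF cluster had 2 genes in treated JM1 and 3 in untreated JM1, so the order of the JM1 lists turned, with 2 in treated Nalm6, 6 in REH and 1 in 697. LTA was the gene with a peak in all 5 lists, with scores of 25, 32, 27, 35 and 15 in treated JM1, untreated JM1, treated Nalm6, REH and 697. LTB, the membrane anchor of lymphotoxin, had scores of 27, 20, 43 and 43 in the first 4 of these and none at its start in 697. TNF itself had a peak only in treated JM1 (score 25) and REH (score 35), in both cases inside a broad peak that also covered LTA. AIF1 scored 53 in REH (percentile 91.9), 22 in treated JM1 and 13 in untreated JM1. NFKBIL1 had its highest in treated Nalm6 (score 58, percentile 96.6).

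Complement genes and their neighbours had start-site peaks in 7 of 10 genes in each of treated JM1, untreated JM1, treated Nalm6 and REH, and in 1 of 10 in 697. The shares of all genes ran from 49.5% (697) to 81.8% (REH). In the lists limited to 19652 peaks the count was 6, 5, 2, 6 and 1 in treated JM1, untreated JM1, treated Nalm6, REH and 697. C4A, C4B and CYP21A2 were the 3 without a peak in any list. C2 was credited in all 5 lists through variants that begin beside EHMT2 and ZBTB12, and at its canonical start only treated Nalm6 (score 14) and REH (score 20) had a peak. NELFE, a subunit of the negative elongation factor, and SKIC2, an RNA helicase gene of the exosome pathway, shared a peak that scored 107 in treated JM1 (percentile 99.3), 16 in untreated JM1 (58.2), 16 in treated Nalm6 (29.8) and 38 in REH (84.5). DXO and STK19, read from neighbouring starts, shared peaks that scored 48, 17, 21 and 36 in treated JM1, untreated JM1, treated Nalm6 and REH.

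The HSP70 genes HSPA1A and HSPA1L shared a peak in treated JM1 (score 18), treated Nalm6 (score 22) and REH (score 27). HSPA1B had one in treated JM1 (score 35), untreated JM1 (score 24) and REH (score 34). HSPA1A and HSPA1B are near-identical copies, so a peak at either is uncertain.

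The 20 nuclear, RNA and housekeeping genes listed for class III had a start-site peak in 20 cases in treated JM1, 18 in untreated JM1, 20 in treated Nalm6, 20 in REH and 5 in 697, against 81.2%, 58.8%, 74.3%, 81.8% and 49.5% of all genes. In the lists limited to 19652 peaks the count was 16, 12, 10, 19 and 5. LSM2 had the highest score in treated JM1 (144), and PRRC2A had a peak in all 5 lists, with scores of 119, 20, 44, 84 and 36. BAG6, which encodes a protein quality control chaperone, scored 105 in treated JM1 (percentile 99.3). EHMT2 scored 78, 25, 48, 75 and 50 across treated JM1, untreated JM1, treated Nalm6, REH and 697, at percentiles between 91.7 and 98.3. CSNK2B, the regulatory subunit of CK2, the kinase that CX-4945 inhibits, had a start-site peak in treated JM1 (score 50, percentile 95.2), untreated JM1 (score 17, percentile 65.0), treated Nalm6 (score 16, percentile 29.8) and REH (score 48, percentile 90.2). It had none in 697, and its start lies next to that of GPANK1. The treated JM1 peak was 9403 bp wide and also covered the starts of GPANK1 and C6orf47. In untreated JM1 the C6orf47 start had a separate peak (score 30, percentile 96.35), so the JM1 values at CSNK2B belong to peaks of unlike extent. Over the merged locus the highest percentile was 95.2 in treated JM1 and 96.35 in untreated JM1.

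Among 31 other listed genes of the class I span, 29 had a start-site peak in treated JM1, 18 in untreated JM1, 28 in treated Nalm6, 29 in REH and 17 in 697, and 14 had one in all lists. The 58.1% of untreated JM1 and 54.8% of 697 were near the 58.8% and 49.5% of all genes. In treated JM1, treated Nalm6 and REH the shares were 93.55%, 90.3% and 93.55%, against 81.2%, 74.3% and 81.8% of all genes. The share in all lists was 45.2%, against 41.8% of all genes. TRIM39, a RING finger gene, had scores of 55, 26, 36, 68 and 50 in treated JM1, untreated JM1, treated Nalm6, REH and 697, all above percentile 84. TRIM10 had one in treated Nalm6 alone (score 24), and TRIM40 had none in any list. TRIM27, which was also listed, lies outside the region. In the lists limited to 19652 peaks, with TRIM27 included, 23 of 32 listed genes had one in treated JM1. Untreated JM1 had 17, treated Nalm6 16, REH 19 and 697 18. The shares of all coding genes in those lists were 60.5%, 45.3%, 54.4%, 62.2% and 49.5% in the same order. Of 15 other listed genes of the class II span, 15 had a start-site peak in treated JM1, 12 in untreated JM1, 11 in treated Nalm6, 15 in REH and 6 in 697. These were 100%, 80%, 73.3%, 100% and 40%, against 81.2%, 58.8%, 74.3%, 81.8% and 49.5% of all genes, so that of treated Nalm6 was near. In the lists limited to 19652 peaks the count was 13, 10, 4, 15 and 6. All coding genes there had 60.5%, 45.3%, 54.4%, 62.2% and 49.5% in the same order. BRD2, RING1, COL11A2, B3GALT4 and RGL2 were those with a peak in all lists.

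The series set treated against untreated JM1 to ask what CX-4945 does to Ikaros binding. The treated list was the longer, with 1.92 times as many region peaks as the untreated one and 2.37 times as many peaks in the rest of the genome. By span the ratio was 2.32 in class I, 1.5 in class III and 1.81 in class II. Of the 326 region peaks of treated JM1, 127 overlapped an untreated JM1 peak by at least 1 bp, or 39.0% (33.6 to 44.5%), against 28.9% of treated peaks in the rest of the genome. The share was 32.8% in class I (25.8 to 40.3%), 48 of 96 in class III (39.6 to 60.4%) and 39.3% in class II (26.5 to 53.2%). Of the 170 region peaks of untreated JM1, 150 overlapped a treated peak, or 88.2% (82.4 to 92.7%), against 84.1% in the rest. A longer list overlaps more of a shorter one, so both lists were also limited to 37448 top-scored peaks, and 59.1% of treated and 75.3% of untreated region peaks then overlapped, against 50.7% and 65.4% in the rest.

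The 199 region peaks found in treated JM1 alone sat at a median percentile of 45.6, against 80.7 for the 127 that overlapped an untreated peak. Their widths had medians of 974 bp and 2933 bp in that order. By the authors' annotation 28.6% of the peaks in treated JM1 alone were at promoters, against 48.0% of the overlapping ones. The rest of the genome had the same pattern in treated JM1. There the median percentiles were 39.5 and 76.7, the median widths 933 bp and 2304 bp and the promoter shares 10.1% and 30.6%. The 5 with the highest scores were all at starts: KIFC1 (score 95, chr6:33391289-33392191), MSH5 with CLIC1 (score 90, chr6:31739584-31740795), PPP1R11 (score 79, chr6:30066743-30067598), ABCF1 (score 70, chr6:30570864-30571830) and DDX39B (score 55, chr6:31539970-31542887). MSH5 acts in meiotic recombination, PPP1R11 is an inhibitor of protein phosphatase 1, ABCF1 acts in translation initiation and DDX39B is an RNA helicase of splicing and export. All 5 genes also had a start-site peak in treated Nalm6 and in REH, as did 74.3% and 81.8% of all coding genes. In untreated JM1, MSH5, ABCF1 and DDX39B had another start-site peak, and KIFC1 and PPP1R11 had none.

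Only 20 region peaks were in untreated JM1 alone, with a median percentile of 24.0 and a median width of 426 bp. Such peaks in the rest of the genome had medians of 29.8 and 467 bp. The highest was the HLA-DMA peak at chr6:32953187-32953485 with a score of 30 (percentile 96.4). The next 4 were in TNXB (score 17), near HCG20 (score 16), in PPP1R10 (score 15) and near DDR1 (score 15). By genes, 37 of 160 (23.1%) had a start-site peak in treated but not untreated JM1, against 23.0% of all coding genes, and 2 in untreated but not treated JM1, against 0.564% of all coding genes. Among the 37 were MICB, TAP2, TNF, NCR3, HSPA1A, HLA-DQB1, KIFC1 and ZBTB22. The 2 were Ensembl genes with no symbol, whose peaks lay at the HLA-DMA start and in PRRC2A.

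**Figure D5:**
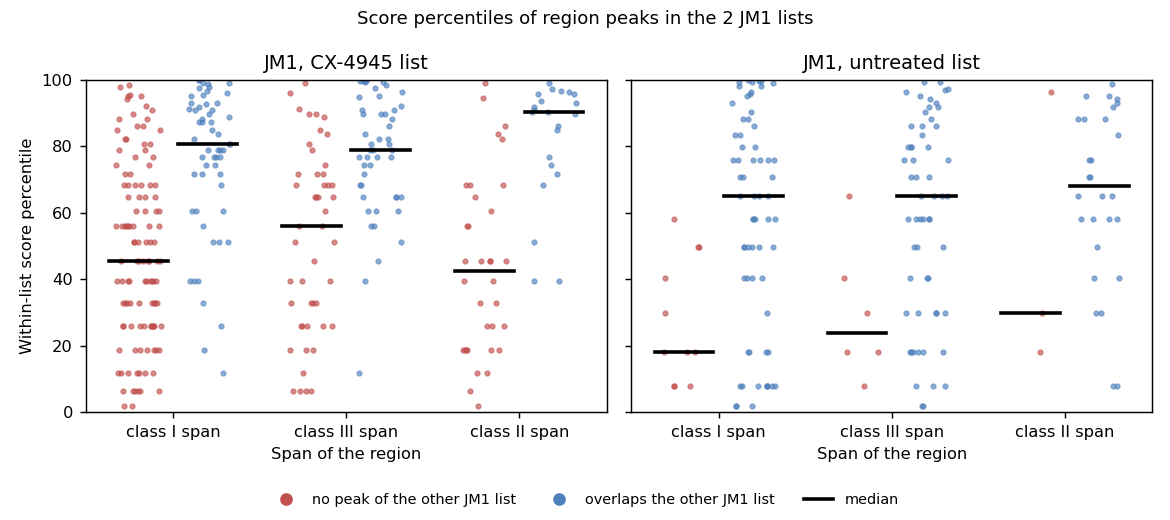
Within-list score percentile (vertical axis) of every region peak in the treated JM1 list (left panel) and the untreated JM1 list (right panel), by span (horizontal axis), for peaks with and without an overlap in the other list, with black lines at the medians. In treated JM1 the peaks alone center at 45.6 in class I, 56.1 in class III and 42.5 in class II, and the overlapping ones at 80.7, 78.8 and 90.2.

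The widest region peak of treated JM1 covered 21575 bp of COL11A2, a collagen gene, at a score of 22, and the next spanned VWA7 and VARS1 (12719 bp), PPP1R18 and NRM (12201 bp), TNXB and ATF6B (11314 bp) and TNXB (10973 bp). In untreated JM1 the widest lay at PPP1R18 (8949 bp), BRD2 (4993 bp), VARS1 (4973 bp), SLC44A4 (4452 bp) and COL11A2 (4383 bp). Their scores varied: in treated JM1 the COL11A2 peak stood at percentile 68.4 and the PPP1R18 and NRM peak at 97.8, and in untreated JM1 BRD2 stood at 94.1, PPP1R18 at 88.3 and COL11A2 at 49.8.

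Merging the 5 lists gave 386 loci in the region, of which 49 held a peak of all 5 lists, or 12.7% (9.54 to 16.4%), against 8.98% of 122668 loci in the rest of the genome. Loci found in 1 list made up 35.0% (30.2 to 40.0%) in the region and 48.7% in the rest. Loci in all lists were 22 of 218 in class I, 17 of 99 in class III and 10 of 69 in class II. Ranked by their lowest percentile over the lists, the first 5 were IER3 with FLOT1 (lowest percentile 95.7), EHMT2 with C2 (91.7), GABBR1 (91.4), TRIM39 (84.2) and GTF2H4 with VARS2 (83.5). GABBR1 encodes a GABA-B receptor subunit, and its locus scored 41, 43, 45, 75 and 63 in treated JM1, untreated JM1, treated Nalm6, REH and 697. The locus of GTF2H4, a subunit of TFIIH, and VARS2, the mitochondrial valine tRNA synthetase, scored 92, 39, 38, 66 and 40 in the same order. A further 56 of 386 loci were in every list but 697, against 9505 of 122668 in the rest. Loci in treated Nalm6 and 697 alone were rare in both, with 0 in the region and 129 in the rest.

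In 300-base windows at peak centres, GGGAA on either strand was found in 67.2% of region peaks in treated JM1, 68.8% in untreated JM1, 68.5% in treated Nalm6, 69.0% in REH and 65.3% in 697. The rest of the genome had 63.95%, 65.3%, 64.6%, 64.2% and 59.7% in the same order. The intervals of the region, such as 61.8 to 72.2% in treated JM1, held the value of the rest in every list. Class II windows had the highest shares in 4 lists, with 73.2% in treated JM1, 77.4% in untreated JM1, 86.1% in treated Nalm6 and 83.7% in REH, and 58.3% of 12 windows in 697. The CCAAT box was in 34.4% of region windows in treated JM1 (29.2 to 39.8%), against 26.9% in the rest, and in 31.5% in treated Nalm6 (25.9 to 37.6%), against 22.9%. In untreated JM1 it was in 28.2% (21.6 to 35.6%), in REH in 25.8% (20.8 to 31.2%) and in 697 in 19.4% (11.1 to 30.5%), intervals that held the 21.98%, 25.6% and 15.5% of the rest. The core of the interferon-stimulated response element, read by IRF factors, was in 2.78% (697) to 4.91% (treated JM1) of region windows, against 1.14% (697) to 2.70% (REH) in the rest.

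The 27 genes of antigen presentation listed from outside the region had a peak at the canonical start in 23 cases in treated JM1, 18 in untreated JM1, 21 in treated Nalm6, 24 in REH and 13 in 697, against 78.0%, 53.2%, 70.0%, 78.8% and 45.1% of all coding genes. In 697 the 48.1% of listed genes was near the share of all genes. CIITA, the master regulator of class II genes, had such a peak in treated JM1 (score 21) and REH (score 59) and none in the other 3 lists. Counting every annotated start, CIITA also had peaks in untreated JM1 (highest score 15) and treated Nalm6 (highest score 25), and none in 697. The highest untreated JM1 peak, chr16:10878573-10879291, lay inside the treated JM1 peak at the canonical start, chr16:10877215-10880564. NLRC5, the class I counterpart of CIITA, had a canonical start peak in all 5 lists. That peak scored 23 in treated JM1, 11 in untreated JM1 (percentile 7.90), 22 in treated Nalm6, 67 in REH and 28 in 697. RFX5, a subunit of the RFX factor, had one only in treated JM1 (score 32) and REH (score 78). CD74, the invariant chain that escorts class II, had one in treated JM1 (score 42), untreated JM1 (score 18) and REH (score 46), and B2M, the light chain of class I, in every list but untreated JM1. CTSS and ERAP2 had none at any annotated start.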

How the data were processed

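The 5 Ikaros peak lists were analysed as deposited, beside 6 Ikaros and 5 input libraries in the labels. Nalm6 had 2 Ikaros libraries and 1 list, and the sources used here do not say which libraries it was called from. BBDuk trimmed the reads, per the labels' protocols. Per the submitters' processing notes, the tools were HOMER 4.10, MACS2 2.1.1 and Bowtie2 2.3.4.3, on GRCh38. The sources used here give no call settings or controls. The peak score is a whole number deposited by the authors whose scale is not defined there, so it was ranked only within a list.

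Peaks were joined to GENCODE 44 coding genes with Python 3.11.15, pandas 2.3.3, numpy 2.4.6, scipy 1.17.1 and pysam 0.24.0, and plotted with matplotlib 3.10.9. The functions that overlap and merge genomic intervals were tested on simulated data. No test was run, since each condition had 1 list. Members and gene lists were chosen with earlier results of these data known. Named were all presenting, ligand, loading and processing genes, the members of other lists with the 4 highest percentiles or a peak in 1 list, the 3 top peaks per span and list, the 5 top and widest JM1 peaks, the first 5 shared loci and the 3 longest gaps. A gene of the class I span is not reported here. Other genes were named after their values were seen. The canonical start was added after seeing the data.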

Additional observations from a re-analysis of the deposited data

How the results depend on the processing

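Peak counts depend on list length. With scores of at least 20 the region held 181 peaks in treated JM1, 51 in untreated JM1, 145 in treated Nalm6 and 43 in 697, and with each list limited to its 19652 top-scored peaks it held 110 in treated JM1, 98 in untreated JM1, 70 in treated Nalm6 and 104 in REH. Genes with a start-site peak came to 42 in untreated JM1 at scores of at least 20, and to 54 in treated Nalm6 in the shortened list. With reciprocal overlap of 50%, 16.3% of treated and 31.2% of untreated JM1 region peaks overlapped, and in lists of equal length 59.1% and 75.3%. Loci in all lists came to 19 at scores of at least 20 and 18 in the shortened lists. The cause of these changes is the construction of the alternatives, which keep fewer peaks or a stricter overlap. The other region totals of genes and peaks stayed within 1.5 times under the alternatives tried. Counts by span and by gene list were recomputed only in the shortened lists, where several moved by more, such as class II genes in treated Nalm6 (8, against 19 in the full list). No paired analysis was possible because each condition had 1 peak list and no test was run. Read depth is unknown.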

Other observations

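Loci present in all 5 lists also lay away from coding starts. A locus in TNXB, at chr6:32078980-32089952, had highest scores of 25 in treated JM1, 22 in untreated JM1, 43 in treated Nalm6, 38 in REH and 40 in 697. A locus at chr6:29863838-29866898 overlapped no coding gene and scored 25, 45, 26, 26 and 36 in the same order. A locus in TRIM15, at chr6:30171646-30172508, scored 34, 34, 54, 26 and 30.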
